A study of Mus musculus with 4 samples.

Results

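Protamines and transition proteins are the small basic proteins that replace histones on spermatid DNA. The 7 genes described here are the protamine genes Prm1 and Prm2, the neighbouring gene Prm3, the transition protein genes Tnp1 and Tnp2, and the spermatid linker histone genes Hils1 and H1fnt. The members are a list of names, drawn up with earlier results of these data known and with no threshold on a measured value, and all 7 were found among the 22073 genes of the table. Their mRNA levels come from poly(A)-selected RNA of the remaining right testis of 2 hemicastrated KM mice (H1 and H2), which lost the left testis before puberty, and of the right testis of 2 sham-operated KM controls (C1 and C2), all sexually mature males. The labels give no age in days, and their protocol text speaks of 3 mice per group where the design text and the sample list give 2, and they name the molecule as genomic DNA where the protocol describes RNA. Values are FPKM (fragments scaled to transcript length and to the number of mapped fragments), so levels are given per length, and the number of reads behind a value is unknown.

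When a round spermatid elongates, its histones are first modified and partly exchanged for testis variants, the transition proteins then take their place, and the protamines finally pack the DNA into a condensed, transcriptionally silent nucleus. The mRNAs of the protamines and transition proteins are made in round spermatids and stored, bound to proteins, until they are translated days later in elongating cells. A level of mRNA in whole testis is therefore no measure of the amount of protein on DNA. In bulk tissue, fewer spermatids and less mRNA per spermatid cannot be told apart.

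The genes differ in the coding sequences that give the proteins their charge. In GENCODE M21 (GRCm38) the Prm1 mRNA has 51 codons before its stop, of which 28 (54.9%) encode arginine, 9 encode cysteine and 0 encode an acidic residue. In Prm2, which encodes a precursor that is cleaved on the DNA, 38 of 107 codons (35.5%) encode arginine and 16 encode histidine. Tnp1 has 11 arginine and 10 lysine codons among 55, so that 38.2% are basic without a single cysteine codon. Tnp2 has 16 arginine, 11 lysine and 22 serine codons among 117. Prm3 carries the name and lies among the others but has 2 arginine codons among 101, while 30 (29.7%) encode glutamate or aspartate. Its product is an acidic protein and not a DNA-packing protamine. Hils1 has 12 arginine and 19 lysine codons among 170, and H1fnt has 65 and 36 among 398. The coding sequences of 4 genes, for Prm2 and Prm3 the first 300 bases, are shown to set this side by side, 5′ to 3′ with every arginine codon (CGN, AGA or AGG) in capitals. Those of Prm1 (chr16:10796484-10796731), Prm2 (chr16:10791594-10791998) and Tnp1 (chr1:73015297-73015863) are each split by 1 intron and that of Prm3 (chr16:10790590-10790889) lies in 1 exon, all on the minus strand.
Prm1: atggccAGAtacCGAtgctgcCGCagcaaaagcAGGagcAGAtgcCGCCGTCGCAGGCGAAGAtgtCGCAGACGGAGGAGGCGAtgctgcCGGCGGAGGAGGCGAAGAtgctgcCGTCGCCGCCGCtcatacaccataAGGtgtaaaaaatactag
Prm2: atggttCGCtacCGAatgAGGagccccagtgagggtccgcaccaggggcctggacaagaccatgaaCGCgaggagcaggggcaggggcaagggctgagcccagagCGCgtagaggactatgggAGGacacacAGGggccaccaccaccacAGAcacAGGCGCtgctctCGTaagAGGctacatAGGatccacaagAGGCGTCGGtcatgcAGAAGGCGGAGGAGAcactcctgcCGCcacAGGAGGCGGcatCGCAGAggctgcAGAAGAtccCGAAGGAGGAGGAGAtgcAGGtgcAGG
Tnp1: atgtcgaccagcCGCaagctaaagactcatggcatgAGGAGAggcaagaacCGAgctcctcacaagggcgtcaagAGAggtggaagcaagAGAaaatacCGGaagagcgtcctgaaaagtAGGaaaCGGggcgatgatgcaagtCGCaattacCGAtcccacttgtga
Prm3: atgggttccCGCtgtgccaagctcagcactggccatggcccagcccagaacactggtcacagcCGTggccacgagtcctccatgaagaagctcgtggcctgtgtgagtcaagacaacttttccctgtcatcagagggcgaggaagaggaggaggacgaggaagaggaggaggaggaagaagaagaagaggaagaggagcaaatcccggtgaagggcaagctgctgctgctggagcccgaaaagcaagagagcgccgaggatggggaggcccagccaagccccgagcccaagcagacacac

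Of the 7 genes, 4 form a cluster on chromosome 16. Tnp2 (ENSMUSG00000043050, 10787936 to 10788660), Prm3 (ENSMUSG00000050058, 10790505 to 10790914), Prm2 (ENSMUSG00000038015, 10791380 to 10796134) and Prm1 (ENSMUSG00000022501, 10796326 to 10805839) follow each other on the minus strand within 17904 bases, with no other gene on that strand between them in GENCODE M21. Tnp1 (ENSMUSG00000026182) lies on chromosome 1 (73015074 to 73015909, minus strand), Hils1 (ENSMUSG00000038994) on chromosome 11 (94967593 to 94968456, plus strand) and H1fnt (ENSMUSG00000048077) on chromosome 15 (98255986 to 98257293, minus strand). The exons of Tnp1 overlap the antisense gene 1700027A15Rik, and Hils1 lies inside the span of Sgca on the other strand without sharing an exon. No strand-marking step is given in the protocol, so reads of Tnp1 and of its antisense partner could not be told apart.

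All 7 genes had an entry in the RefSeq promoter table (GRCm38.p6), with H1fnt listed there under its newer symbol H1f7. The window runs from 250 bases before to 50 bases after the start of transcription, and 5 motifs were searched on both strands. The cyclic AMP response element TGACGTCA, the site class bound by the spermatid activator CREM, was in 0 of the 7 windows and in 1.79% of the 32851 windows of the table. Its shorter core TGACG was in 1 (H1fnt) against 20.8%, TATAAA in 1 (Prm2, on the other strand) against 13.6%, and CCAAT in 2 (Prm3 and Hils1) against 37.4%. With any base at the fifth position (TGACNTCA, which overlaps the first motif and was added after it had no match), the element was in 4 of the 7 windows (Prm1, Prm3, Tnp1 and Hils1) against 8.83% of all windows and 15.6% of the 794 windows whose gene averaged 100 FPKM or more. It started at position -64 in Prm1, -60 in Prm3, -94 in Tnp1 and -7 in Hils1, counted from the RefSeq start. In Prm1 the GENCODE transcript Prm1-201 starts 63 bases further upstream than the RefSeq one, so that the same letters start at -1 from the start of Prm1-201. A match of letters does not show that a factor binds there. The 150 bases before the RefSeq start are shown for the 4 most abundant genes, 5′ to 3′ on the strand of the gene. Matches to any of the 5 motifs on either strand are in capitals. For Prm1 only the 107 farthest bases are shown, and the last 20 of these lie inside Prm1-201. The last 10 bases shown for Tnp1 and the last 5 for Tnp2 also lie inside their GENCODE transcripts. The stretches are Prm1 (chr16:10796867-10796973), Prm2 (chr16:10792106-10792255), Tnp1 (chr1:73015900-73016049) and Tnp2 (chr16:10788656-10788805), which holds no match. The Prm1 and Prm2 stretches lie inside the GENCODE gene spans given above, which reach further upstream than the starts used here.
Prm1: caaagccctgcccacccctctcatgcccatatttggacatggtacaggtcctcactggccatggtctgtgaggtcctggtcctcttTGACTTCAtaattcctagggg
Prm2: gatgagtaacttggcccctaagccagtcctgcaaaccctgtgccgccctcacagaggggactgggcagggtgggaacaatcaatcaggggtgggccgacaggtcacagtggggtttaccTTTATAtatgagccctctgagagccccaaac
Tnp1: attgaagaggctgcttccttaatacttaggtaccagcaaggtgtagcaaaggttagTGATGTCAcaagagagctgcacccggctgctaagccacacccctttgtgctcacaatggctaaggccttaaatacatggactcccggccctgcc
Tnp2: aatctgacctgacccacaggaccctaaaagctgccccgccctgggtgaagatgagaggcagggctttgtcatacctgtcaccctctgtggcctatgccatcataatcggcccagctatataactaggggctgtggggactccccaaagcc

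Prm1, Tnp2, Tnp1 and Prm2 were the 4 highest genes of the whole table in each of the 4 libraries. Together they took 5.14% of the summed FPKM in C1, 5.62% in C2, 5.96% in H1 and 5.78% in H2. The next gene was Ldhc, the testis lactate dehydrogenase subunit, at 2503, 2504 and 2891 FPKM in C1, H1 and H2, and the guanylate kinase gene Guk1 at 3489 FPKM in C2. Of the 10 genes with the highest mean, the remaining ones were Gstm5, Meig1, Oaz3 and the mitochondrial mt-Co1. Hils1 ranked between 70 and 86, H1fnt between 535 and 732 and Prm3 between 600 and 845.

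The order of levels held at its ends and not in its middle. Prm1 ranged from 5732 to 6458 FPKM and did not overlap Tnp2, which ranged from 4649 to 5343. Tnp2 overlapped Tnp1 (3442 to 4961), and Tnp1 overlapped Prm2 (3701 to 4922), so these neighbours in the order did not differ beyond their spread over libraries. Tnp2 was the second gene in C1, C2 and H2 and the fourth in H1, where Tnp1 was the second. Below a wide gap stood Hils1 (371 to 406), then H1fnt (101 to 125) and Prm3 (87.4 to 115), whose ranges overlapped although H1fnt was above Prm3 in each library. Prm3 lies between Tnp2 and Prm2 in the cluster, and Prm2 was 41.3 to 46.1 times as high in FPKM.

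**Figure D1:**
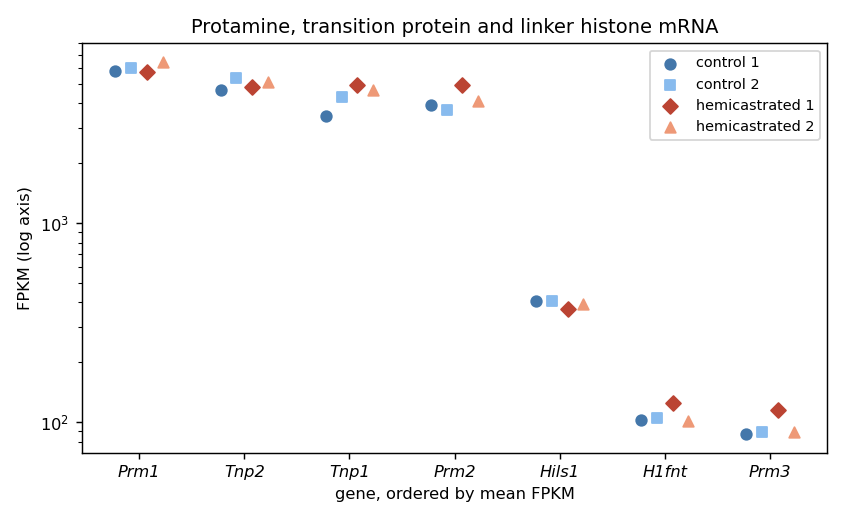
FPKM of the 7 genes on a log axis, with 1 point per library (circles and squares control, diamonds and triangles hemicastrated). Prm1, Tnp2, Tnp1 and Prm2 lie between 3442 and 6458 FPKM in all libraries, Hils1 between 371 and 406, and H1fnt and Prm3 between 87.4 and 125.

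FPKM is a level per length, and the spliced mRNAs are short, with 469 bases for Prm1, 621 for Prm2, 437 for Tnp1 and 554 for Tnp2. When FPKM was multiplied by the exonic length of each gene, which approximates its share of the sequenced fragments, the 7 genes together took 0.926% in C1, 0.997% in C2, 1.09% in H1 and 1.04% in H2. On that scale Prm1 ranked between 9 and 16, Prm2 between 4 and 13, Tnp2 between 19 and 22 and Tnp1 between 26 and 70. These lengths join the exons of all transcripts of a gene in GENCODE M21 (571 bases for Prm1 and 894 for Prm2), which may differ from the annotation the authors used.

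The comparison of hemicastrated with control mice asks whether the remaining testis holds other levels of these mRNAs in the adult. In limma on log2(FPKM + 1) with Benjamini-Hochberg adjustment over all genes tested, 0 of the 7 genes passed an adjusted p of 0.05, against 147 of 11343 genes (1.3%) in the whole table, of which 135 were lower (1.19%) and 12 higher (0.106%). At an unadjusted p under 0.05 the count was 1 of 7, which was Tnp1, and 1191 of all genes. Of the 7 genes, 6 had a positive log2 fold change (hemicastrated minus control), against 43.4% of all genes, and their median was 0.11 against -0.03 for all genes. The libraries of the groups did not overlap in 3 of the 7 (Tnp1 and Prm2 higher, Hils1 lower after hemicastration), where 41.2% of all genes showed no overlap (16.3% higher and 24.8% lower). Both shares of the 7 genes, 0 called and 3 without overlap, were near those of the whole table.

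Of the transition protein genes, Tnp1 had the largest difference. Its FPKM was 3442 in C1, 4309 in C2, 4961 in H1 and 4697 in H2. Both hemicastrated values were above both controls, and C1 was the lowest library by a wide margin. The log2 fold change was 0.33 (SE 0.12, 95% interval 0.03 to 0.62, a ratio of 1.25), with a limma p of 0.0342 before and 0.413 after adjustment; it was the 939th smallest p of 11343. Without C1 the log2 fold change was 0.16. With all 4 libraries the SE was 0.11 under a replicate block, 0.14 without a variance trend and 0.18 with no filter on low values. The interval thus depends on the variance model. Tnp2, whose product is less basic and richer in serine, was at 4649 FPKM in C1, 5343 in C2, 4848 in H1 and 5131 in H2. The hemicastrated values lay between the controls, and the log2 fold change was 0.001 (95% interval -0.24 to 0.24, limma adjusted p = 0.998). A change beyond 1.18-fold in either direction lies outside the interval of this fit. Its SE was 0.10, against 0.12 without a variance trend and 0.16 with no filter on low values, so this bound depends on the variance model.

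Among the protamines, Prm1 was at 5802 FPKM in C1, 5995 in C2, 5732 in H1 and 6458 in H2. H1 was the lowest and H2 the highest of the 4 libraries, so the groups overlapped fully. The log2 fold change was 0.04 (SE 0.09, limma adjusted p = 0.909), with a 95% interval of the fold from 0.885 to 1.20. Prm2 was at 3934 FPKM in C1, 3701 in C2, 4922 in H1 and 4111 in H2. Both hemicastrated libraries were above both controls, but H2 exceeded C1 by little and H1 carried most of the difference. The log2 fold change was 0.24 (SE 0.11, 95% interval -0.02 to 0.50, limma adjusted p = 0.524) and 0.11 without H1.

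Prm3 showed the same single high library. It was at 87.4 FPKM in C1, 89.5 in C2, 115 in H1 and 89.3 in H2. H2 lay within the range of the controls, and H1 stood above all 3 others. The log2 fold change was 0.20 (SE 0.13, 95% interval -0.12 to 0.51, limma adjusted p = 0.670), and 0.01 without H1.

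The linker histone genes went in different directions, neither past the threshold. Hils1, which encodes a histone H1-like protein of elongating spermatids, was at 405.4 FPKM in C1, 405.8 in C2, 370.6 in H1 and 393.5 in H2. Both hemicastrated values were below the 2 nearly equal controls, with a log2 fold change of -0.09 (SE 0.08, 95% interval -0.27 to 0.10, limma adjusted p = 0.761). H1fnt, a spermatid linker histone known to be needed for nuclear condensation, was at 102.9 FPKM in C1, 105.2 in C2, 125.1 in H1 and 101.3 in H2. H1 was the highest and H2 the lowest library, and the log2 fold change was 0.11 (SE 0.12, limma adjusted p = 0.796) and -0.04 without H1.

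**Figure D2:**
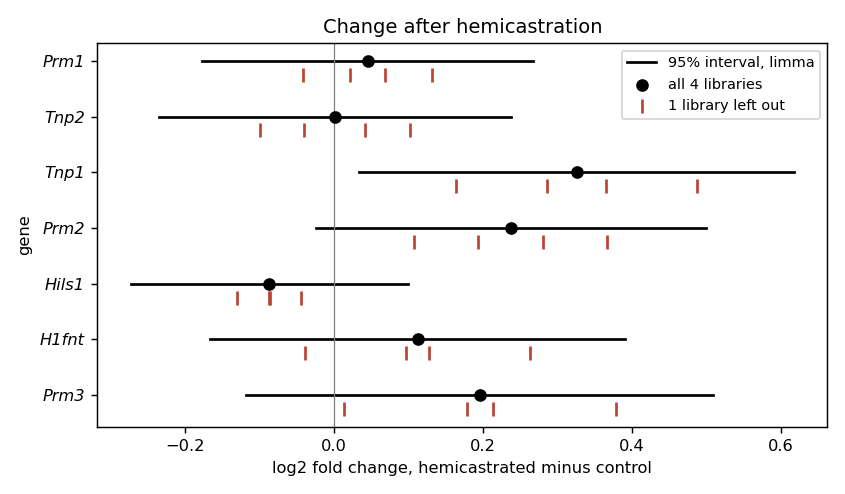
Log2 fold change of each gene, hemicastrated minus control, with the 95% interval of limma over 4 libraries (black) and the value with 1 library left out (red marks). The interval of Tnp1, from 0.03 to 0.62, is the single one that leaves out 0 in this fit. Its width depends on the variance model, and none of the 7 passed the adjusted threshold.

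H1 was the highest library for 4 of the 7 genes (Prm2, Prm3, Tnp1 and H1fnt) and the lowest for Prm1 and Hils1, whereas it was the highest of the 4 libraries for 22.3% of all genes tested and the lowest for 31.5%. C1 was the lowest for Tnp1, Tnp2 and Prm3. In H1 the deviation from the mean of the gene over 4 libraries was 0.25 for Prm2, 0.28 for Prm3, 0.20 for Tnp1 and 0.21 for H1fnt on the log2 scale, and -0.06 for Prm1 and -0.09 for Hils1. In H2, the other library of the group, those of Prm2, Prm3 and H1fnt were -0.01, -0.09 and -0.09. The difference between H1 and H2 was thus at least as large as that between the groups for these 3 genes, while C1 and C2 lay closer together.

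**Figure D3:**
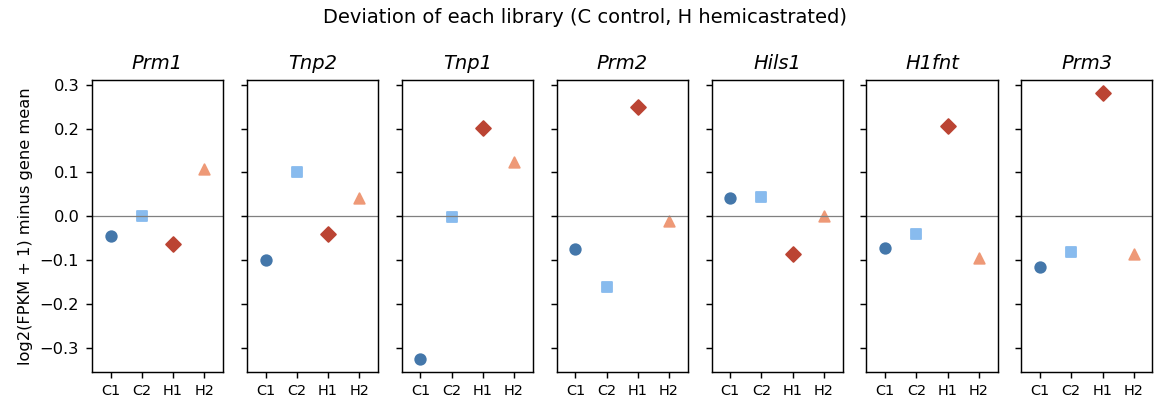
Deviation of each library from the mean of the gene over the 4 libraries, on the log2(FPKM + 1) scale, with controls C1 and C2 and hemicastrated mice H1 and H2. H1 stands above the other 3 libraries for Prm2, H1fnt and Prm3 (0.25, 0.21 and 0.28), while C1 stands below them for Tnp1 (-0.32).

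Ratios within a library do not depend on how the library was scaled. Mouse sperm carry both protamines, and the balance of Prm1 and Prm2 is followed in studies of male fertility. The ratio of Prm1 to Prm2 FPKM was 1.47 in C1, 1.62 in C2, 1.16 in H1 and 1.57 in H2. H1 alone was low, and H2 lay between the controls. The means were 1.55 ± 0.10 and 1.37 ± 0.29 (SD, n = 2 each), a log2 difference of -0.19 with a two-sided exact permutation p of 0.667 (0.889 after Benjamini-Hochberg adjustment over the 4 ratios and shares tested). Without H1 the log2 difference was 0.02. With 2 libraries against 2, the smallest two-sided p this exact test can give is 0.333.

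The ratio of Tnp1 to Tnp2 was 0.740 in C1, 0.806 in C2, 1.02 in H1 and 0.915 in H2. Both hemicastrated values were above both controls, and the means were 0.773 ± 0.047 and 0.969 ± 0.076 (SD, n = 2 each). The log2 difference was 0.32, from 0.24 to 0.41 with 1 library left out, and the exact permutation p was 0.333, the smallest the design allows (adjusted 0.667). The sum of Prm1 and Prm2 over that of Tnp1 and Tnp2 was 1.20 in C1, 1.005 in C2, 1.09 in H1 and 1.08 in H2, both of which lay between the controls (log2 difference -0.02, exact permutation p = 1). Its sign turned without C1 (0.11) and with FPKM multiplied by exonic length (0.016). As untested description, Hils1 to H1fnt stood at 3.94 in C1, 3.86 in C2, 2.96 in H1 and 3.88 in H2, and Prm1 to Prm3 at 66.4 and 67.0 against 49.7 and 72.4. In both of these ratios H1 was the low library.

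The 7 genes together took 5.31% of the summed FPKM in C1, 5.79% in C2, 6.14% in H1 and 5.94% in H2. The means were 5.55% ± 0.34 and 6.04% ± 0.14 (SD, n = 2 each), a difference of 0.488 percentage points with an exact permutation p of 0.333 (adjusted 0.667), and 0.248 without C1. Prm3, Hils1 and H1fnt together took 0.165% to 0.178% of the summed FPKM. The epididymal markers moved with the groups in the same libraries. Of 12 epididymis genes listed, 7 were tested and 6 fell (Crisp1, Adam7, Defb2, Spink8, Ces5a and Cuzd1), and the summed FPKM of the list was 980.0 and 1352 in the controls against 6.09 and 8.37 in the hemicastrated mice, with Lcn5, Lcn8 and Lcn10 listed at 0 in all 4 libraries. With all 147 called genes left out of the sum, the share of the 7 genes was 5.64% against 6.06%, a difference of 0.423 percentage points. Markers of germ, Sertoli and Leydig cells were detected. The Sertoli cell markers Sox9 and Fshr and the spermatogonium marker Zbtb16 averaged only 0.859, 0.703 and 0.362 FPKM and were not tested. The summed FPKM of round spermatid, spermatocyte, Sertoli cell and Leydig cell markers, like the share of the 7 genes, was higher in H1 and H2. The sums of spermatogonium, erythroid and macrophage markers were above both controls in neither H1 nor H2. Of 5 spermatogonium markers tested, 1 had a positive log2 fold change (median -0.10). Of 3 erythroid markers tested, 1 was positive (median -0.21), and of 3 macrophage markers tested, 0 were (median -0.26). In limma, 0 markers of any of these lists were called. At an unadjusted p under 0.05 there were 5 round spermatid, 4 spermatocyte, 2 Sertoli cell and 2 Leydig cell markers. The macrophage marker Lyz2 also reached it, but was lower after hemicastration (log2 fold change -0.44). Of all genes tested, 1191 of 11343 did so. The markers were chosen with earlier results of these data known, so these counts are description only. All 9 round spermatid markers had a positive log2 fold change (median 0.19), and their summed FPKM was 729 in C1, 718 in C2, 832 in H1 and 845 in H2. Of 7 spermatocyte markers, 6 were positive (median 0.38), and their sum was 630 in C1, 662 in C2, 772 in H1 and 697 in H2. Of 7 Sertoli cell markers 5 were tested and 4 were positive (median 0.28), with a sum of 441 in C1, 464 in C2, 552 in H1 and 516 in H2. The largest differences were those of Cst9 and Cst12 (log2 fold change 0.67 and 0.73). Cst9 was at 62.8 FPKM in C1, 76.7 in C2, 110 in H1 and 112 in H2, and Cst12 at 56.3 and 74.5 against 107 and 109. Clu, the highest of the list, had a log2 fold change of -0.03, Rhox5 0.28 and Wt1 0.20. Of 5 Leydig cell markers, 2 were positive (median -0.01), with a sum of 1611 in C1, 1516 in C2, 1888 in H1 and 1783 in H2. Most of that sum was Insl3, at 1272 in C1, 1232 in C2, 1609 in H1 and 1484 in H2. Cyp17a1, Cyp11a1 and Hsd3b1 had log2 fold changes of -0.13, -0.31 and -0.01. None of these 4 sums overlapped between the groups, and their part in the values of Tnp1, Prm2 and the share was not tested.

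**Figure D4:**
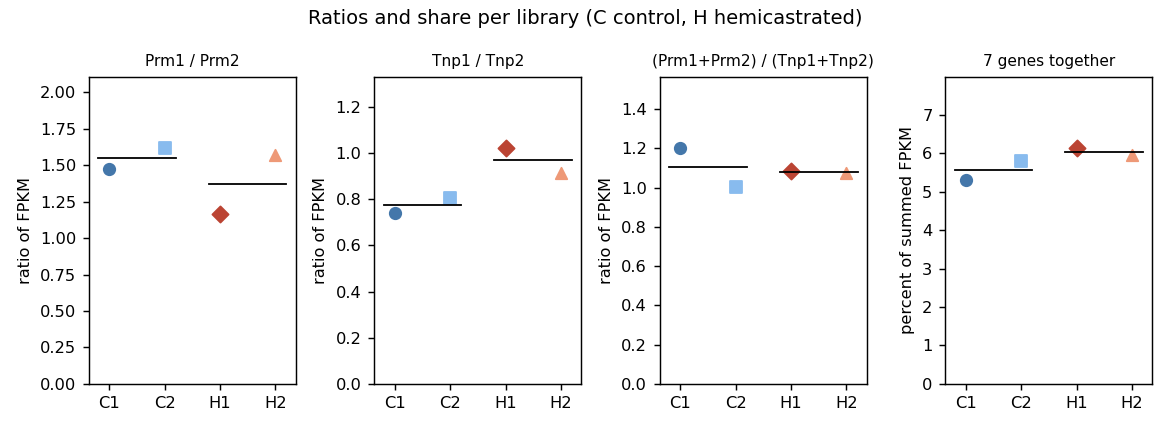
Ratios of FPKM and the share of the 7 genes in the summed FPKM, per library, with group means as black lines and axes from 0. Tnp1 to Tnp2 and the summed share show no overlap between controls (C1, C2) and hemicastrated mice (H1, H2), and Prm1 to Prm2 is low in H1 alone at 1.16.

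The other genes of the exchange were followed through 6 lists with 121 names, of which 117 were in the table and 111 reached a mean of at least 1 FPKM. In limma over all genes, 0 of the 111 passed an adjusted p of 0.05 (1.3% of all genes did), 6 had an unadjusted p under 0.05, 48 had a positive log2 fold change, and the median was -0.02 against -0.03 for all genes.

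Of the histone variants, 0 of 14 tested were called and 4 had a positive log2 fold change (median -0.06). H2al2a, an H2A variant that helps load the transition proteins, was at 246 FPKM in C1, 245 in C2, 220.4 in H1 and 244 in H2, and H2al1n of the same family at 41.2 and 44.8 against 42.2 and 41.6. This family has near-identical copies, which leaves its values uncertain. The replacement histone genes H3f3b and H3f3a had log2 fold changes of -0.02 and 0.10. The testis H2B gene Hist1h2ba, named after its values were seen, was at 6.74 FPKM in C1, 6.99 in C2, 6.62 in H1 and 2.77 in H2, low in H2 alone (limma adjusted p = 0.608). Without H1 it was called lower, with a log2 fold change of -1.06 (limma adjusted p = 0.0293), but that call rests on H2 as the lone hemicastrated library, with the spread taken from the controls.

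Genes for the acetylation, eviction and breakdown of histones gave 0 calls among 27 tested, 7 of them positive (median -0.05). Phf7, a reader and ubiquitin ligase for histones in spermatids, was at 799 FPKM in C1, 834 in C2, 780 in H1 and 888 in H2. The chaperone gene Hspa2 had a log2 fold change of -0.03, Brdt, which binds acetylated histones and compacts chromatin, 0.14, and Psme4, the proteasome activator that degrades acetylated histones, -0.05. Among kinases, phosphatases and import factors for these proteins, 0 of 11 were called and 6 were positive (median 0.01). The importin Ipo5 was at 241 FPKM in C1, 239 in C2, 215 in H1 and 229 in H2, the protamine kinase gene Srpk1 at 122 and 120.2 against 126 and 127, and the testis kinase genes Tssk2 and Tssk6 had log2 fold changes of 0.10 and -0.004.

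Regulators of transcription in spermatids gave 0 calls among 15, with 8 positive (median 0.02). Ybx2, which also binds stored protamine mRNA, was at 1220 FPKM in C1, 1165 in C2, 1067 in H1 and 1164 in H2, and Spz1, Tbpl1 and Fhl5 had log2 fold changes of 0.10, 0.14 and 0.15. Crem, named after its values were seen, was at 92.5 FPKM in C1, 97.9 in C2, 100.4 in H1 and 114 in H2 (log2 fold change 0.17, limma adjusted p = 0.615). Kif17, the kinesin that moves the CREM coactivator out of the nucleus, was also named after its values were seen. It was at 60.5 FPKM in C1, 58.4 in C2, 48.1 in H1 and 43.7 in H2 (log2 fold change -0.37, SE 0.09, limma adjusted p = 0.204).

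Of 19 tested genes for the storage and translation of mRNA, 0 were called and 10 were positive (median 0.004). Ybx1, a Y-box mRNA-binding protein, was at 241 FPKM in C1, 260.0 in C2, 308 in H1 and 289 in H2 (log2 fold change 0.25, limma adjusted p = 0.353), with both hemicastrated values above both controls. Ybx3, Pabpc1 and Pabpc2 had log2 fold changes of -0.03, -0.004 and 0.004. Other mRNAs listed for elongating spermatids, for the tail and energy supply, gave 0 calls among 25 with 13 positive (median 0.02). Among them Meig1, needed for the manchette and tail, was at 1319 FPKM in C1, 1610 in C2, 1766 in H1 and 1936 in H2 (log2 fold change 0.34, SE 0.12, limma adjusted p = 0.364), with C1 the lowest library as for Tnp1. The other highest genes of this list had log2 fold changes of 0.09 for Ldhc, -0.11 for Oaz3 and -0.04 for Smcp. The summed FPKM of the 25 companions was 4.50% of the total in C1, 4.51% in C2, 4.50% in H1 and 4.63% in H2. Pgk2 is counted there and also among the spermatocyte markers, so the list is not particular to elongating spermatids.

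**Figure D5:**
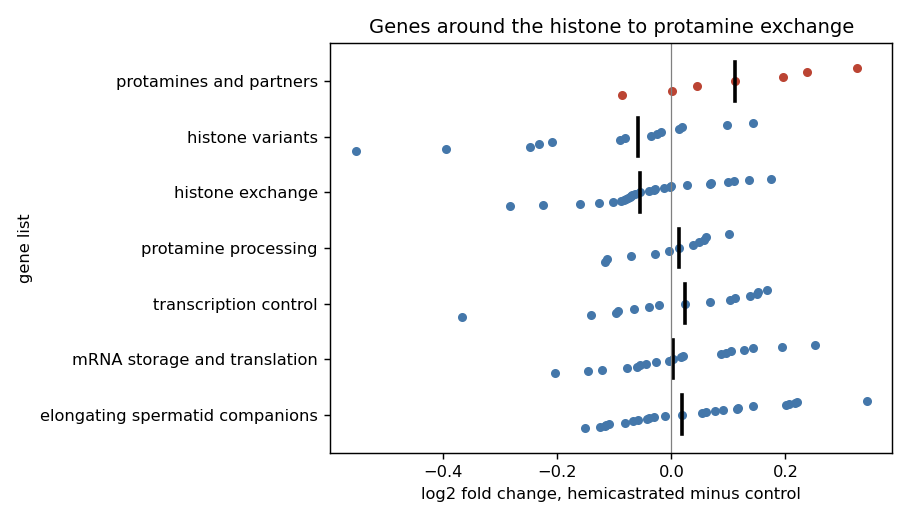
Log2 fold changes (hemicastrated minus control) of the tested genes of 6 lists and of the 7 genes (red), 1 point per gene, with black bars at the medians. The medians of the lists lie between -0.06 and 0.02 and that of the 7 genes at 0.11, and no gene shown passed the adjusted threshold.

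The mean profile of Prm1, Prm2, Tnp1 and Tnp2 over the 4 libraries deviated by -0.14 in C1, -0.02 in C2, 0.09 in H1 and 0.07 in H2 on the log2 scale. The 5 genes nearest to it by the root mean square difference of their own deviations over these 4 libraries were Fau, Wwp1, Tbc1d9, Bptf and Crk, with differences from 0.003 to 0.012, all with a mean of 4.30 to 14.0 FPKM. With 4 libraries many genes come close, and 350 of 11339 genes were within 0.05.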

How the data were processed

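Poly(A) RNA of the right testis of 4 mice was sequenced, per the labels' protocols. The authors deposited a table of FPKM. Cufflinks 2.2.1, TopHat2 2.0.11 and GRCm38 stand in the submitters' processing notes with no role, and the gene models were not given in the sources used here. Depth is unknown, and the 2 mice of a group limit the precision.

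Symbols and positions came from GENCODE M21. The summed FPKM was 343105 to 353135 per library. The 11343 genes averaging 1 FPKM or more were compared in limma 3.58.1 (R 4.3.3) on log2(FPKM + 1), with a variance trend, no covariate and Benjamini-Hochberg adjustment over all of them. Fold changes on this scale understate changes of low genes. The code was tested on simulated data. Ratios and shares were compared by exact permutation tests, two-sided. Lists were counted without a set test, and 4 of their names were not in the table. Named genes are the 7 genes, called genes and the 4 highest tested genes of each of the 6 lists, the 5 genes of the most like profile and the 10 highest genes. Hist1h2ba, Crem, Kif17, the neighbours of the cluster and the cell type markers that were not called were named outside this rule, after their values were seen. Alternatives were another pseudocount, filter, scaling, variance model, a replicate block and leaving out each library. The 7 genes and all lists were chosen with earlier results of these data known. The motif TGACNTCA was added after the first search. Protein composition was planned from protein sequences, which were not used here, and codons were counted in GENCODE transcripts.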

Additional observations from a re-analysis of the deposited data

How the results depend on the processing

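None of the 7 genes was called under any of the 13 alternatives for the comparison over all genes (lowest adjusted p = 0.203). The count of called genes was 147, 70 when genes had to average 5 FPKM, where fewer genes were tested, and 78 to 182 with 1 library left out (96 without C1, 78 without C2). The count over the 6 lists was 0, and 0 to 1 with 1 library left out. Signs of log2 fold changes turned for values near 0. With 1 library left out, Prm1 ranged from -0.041 (without H2) to 0.13, H1fnt from -0.038 (without H1) to 0.26, and Tnp2 from -0.099 (without C1) to 0.10, with -0.040 without H2. Tnp2 was also at -0.0097 in TPM and at -0.16 under quantile normalization, which sets the highest genes by their rank alone and so gives no measure of their change. With 1 library left out, the log2 difference was -0.41 to 0.024 for Prm1 to Prm2, 0.24 to 0.41 for Tnp1 to Tnp2 and -0.16 to 0.11 for protamines to transition proteins (0.016 with FPKM times exonic length), and the share differed by 0.248 to 0.727 percentage points. Where limma was run with 1 library left out, the lone library of its group was assumed to vary like the other group. The cause of these turns was not tested. Same-numbered libraries did not deviate together (r = 0.0137 over genes), and the replicate block gave 197 called genes and 0 of the 7. Under the block the ratio and share differences had to be the same values, since each control was paired with 1 hemicastrated library. The exact permutation p was 0.5 to 1, and with so few pairs it cannot be below 0.5.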

Other observations

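The genes next to the chromosome 16 cluster stood at far lower levels than Prm1 and Tnp2. Socs1, the neighbour on the Tnp2 side and an inhibitor of cytokine signalling, was at 0.638 FPKM in C1, 1.08 in C2, 1.39 in H1 and 0.803 in H2. Clec16a, which follows it, was at 9.49 and 9.93 against 8.72 and 9.87 FPKM. On the Prm1 side, Rmi2, a subunit of a complex that resolves DNA recombination intermediates, was at 0.285 and 0.109 against 0.405 and 0.320 FPKM, and Gm11172 was listed at 0 in all 4 libraries.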
